A study of Mus musculus with 15 samples.

Results

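The genes of glycolysis and of the response to low oxygen were followed through macrophages of mouse ear skin. The set holds 34 genes, taken as the rows of the deposited table that carry exactly these symbols, out of 42454 rows. It covers the carriers that bring glucose in and lactate out (Slc2a1, Slc2a3, Slc16a1, Slc16a3) and the enzymes from hexokinase to pyruvate kinase. It also holds the genes that set the fate of pyruvate (Ldha, Pdk1), the oxygen sensing genes (Hif1a, Egln1, Egln3) and 7 hypoxia targets outside glycolysis. Of the 34, 31 passed the filter on low values (a mean normalised count of 100 or more over all libraries) and were tested; Pfkm, Egln3 and Ankrd37 did not pass.

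The study sequenced RNA of CD11b+ CD64+ lineage-negative macrophages sorted from the ears of tamoxifen-treated mice that carried CX3CR1-creERT2/gfp and R26-tdT/+ (the genotype field spells the first allele Cxcr1creERT2/gfp), so all groups share these alleles and the tamoxifen. The left ear was punched 3 weeks after tamoxifen, and skin of both ears was taken 10 days after the punch. There were 15 libraries in 5 groups of 3. The animals' age is not given in the sources used here. Interstitial macrophages came from the unpunched ear (IM) and from the punched ear (injIM). Nerve-associated macrophages came from the unpunched ear (sNAM), from the punched ear as resident cells (injsNAM) and from the punched ear as recruited cells (recsNAM). The reporter, a Tomato mark left by a pulse of Cre in cells that expressed Cx3cr1 at the time of tamoxifen, is what separates resident from recruited cells, together with GFP from the same locus. The groups were taken from the sample titles. The reporter field of the samples follows the ear and not the title: injIM libraries carry GFP+/Tomato+ there and sNAM libraries GFP-/Tomato-, whereas the protocol assigns GFP-/Tomato- to interstitial and GFP+/Tomato+ to resident nerve-associated cells. The labels speak of 3 mice but do not say which mouse gave which library, so the p-values measure the spread between libraries.

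Glycolysis turns glucose into pyruvate in the cytosol and yields ATP without oxygen; lactate dehydrogenase then regenerates NAD+, and monocarboxylate carriers export the lactate. Hypoxia-inducible factor 1 alpha, encoded by Hif1a, is hydroxylated by the prolyl hydroxylases of the Egln family and degraded while oxygen is plentiful; when oxygen is low it pairs with Arnt, binds hypoxia response elements and raises the transcription of many glycolytic genes. In macrophages, glycolysis and Hif1a are also known to respond to inflammatory stimuli such as bacterial products, so the same genes are read both as oxygen and as activation genes.

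Depth was 20397849 to 23794162 reads in the IM, injIM and recsNAM libraries, 16889283 to 19520105 in injsNAM and 5636251 to 18632984 in sNAM. Within-group correlations of log2 values ranged from 0.934 to 0.983 in IM, injIM and recsNAM but from 0.644 to 0.776 in sNAM and injsNAM. Of the genes tested, 3.89 to 25.8% had no read in the single sNAM libraries and 4.26 to 8.79% in the injsNAM libraries, against 0.139 to 0.751% in the other 9. The test gave each group its own weight, and sNAM (0.175) and injsNAM (0.311) counted for less than IM (3.43), injIM (3.21) and recsNAM (1.67). All 10 pan-macrophage markers, Csf1r, Cd68 and C1qa among them, were detected in every group, with a summed level of 16649 to 26512 CPM (reads scaled to the library total). Values below are normalised counts, which are read counts divided by a size factor per library; differences are in log2(normalised count + 100) from limma with Benjamini-Hochberg adjustment over 8656 genes, and folds are ratios of group means.

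Per kilobase of exon, averaged over the 15 libraries, Pkm (pyruvate kinase of muscle and immune cells, the last step of glycolysis) was the most abundant member at 6075 normalised counts per kb. It was followed by Aldoa (aldolase A) at 4795, Ldha (lactate dehydrogenase A) at 4753, Ndrg1 (a hypoxia-induced stress gene) at 3561 and Gapdh (glyceraldehyde-3-phosphate dehydrogenase) at 3425 per kb. At the other end of the tested members stood Pdk1, a kinase that inhibits pyruvate dehydrogenase, at 48.9 per kb and Ddit4, an inhibitor of mTORC1, at 78.7 per kb.

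Several steps drew most of their transcript from a single gene. Hk3, a hexokinase typical of myeloid cells, made 50.6 to 70.8% of the length-scaled hexokinase signal over all 15 libraries, with Hk1 at 14.3 to 41.9% and Hk2, the inducible form, at 0 to 27.5%. Pfkp made 60.7 to 85.4% of the phosphofructokinase signal and Pfkm at most 10.4%. Aldoa made 85.1% or more of the aldolase signal. Among the bifunctional enzymes that set the phosphofructokinase activator fructose-2,6-bisphosphate, Pfkfb4 made 63.4 to 90.7% in the 12 libraries outside sNAM and 2.73 to 65.7% in sNAM. The 2.73%, in sNAM replicate 2, rests on 5 reads of Pfkfb4. Egln1 made 71.3 to 100% of the Egln1 and Egln3 signal where either gene had a read. In sNAM replicate 2 neither had a read, so no share can be given there. In sNAM replicate 1 the share of 100% rests on 1 read of Egln1.

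The carriers showed a different mix by group. Slc16a3 encodes MCT4, the lactate exporter of strongly glycolytic cells, and Slc16a1 encodes the more widely expressed MCT1. Slc16a3 made 12.8 to 31.2% of the length-scaled sum of both in IM, 36.1 to 55.8% in injIM, 62.5 to 67.3% in injsNAM and 65.9 to 75.3% in recsNAM. The IM, injIM and recsNAM ranges did not overlap, while recsNAM and injsNAM did. In sNAM the share ran from 30.2 to 99.9%. For glucose, Slc2a1 (GLUT1) dominated throughout. The Slc2a3 (GLUT3) share was 10.8 to 13.4% for IM, 1.6 to 4.54% for injIM and 1.31 to 3.75% for recsNAM, while sNAM (5.43 to 31.3%) and injsNAM (0 to 11.6%) overlapped IM and sNAM also lay above injIM. The 5.43%, in sNAM replicate 2, rests on 6 reads of Slc2a3 and 86 of Slc2a1.

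**Figure D1:**
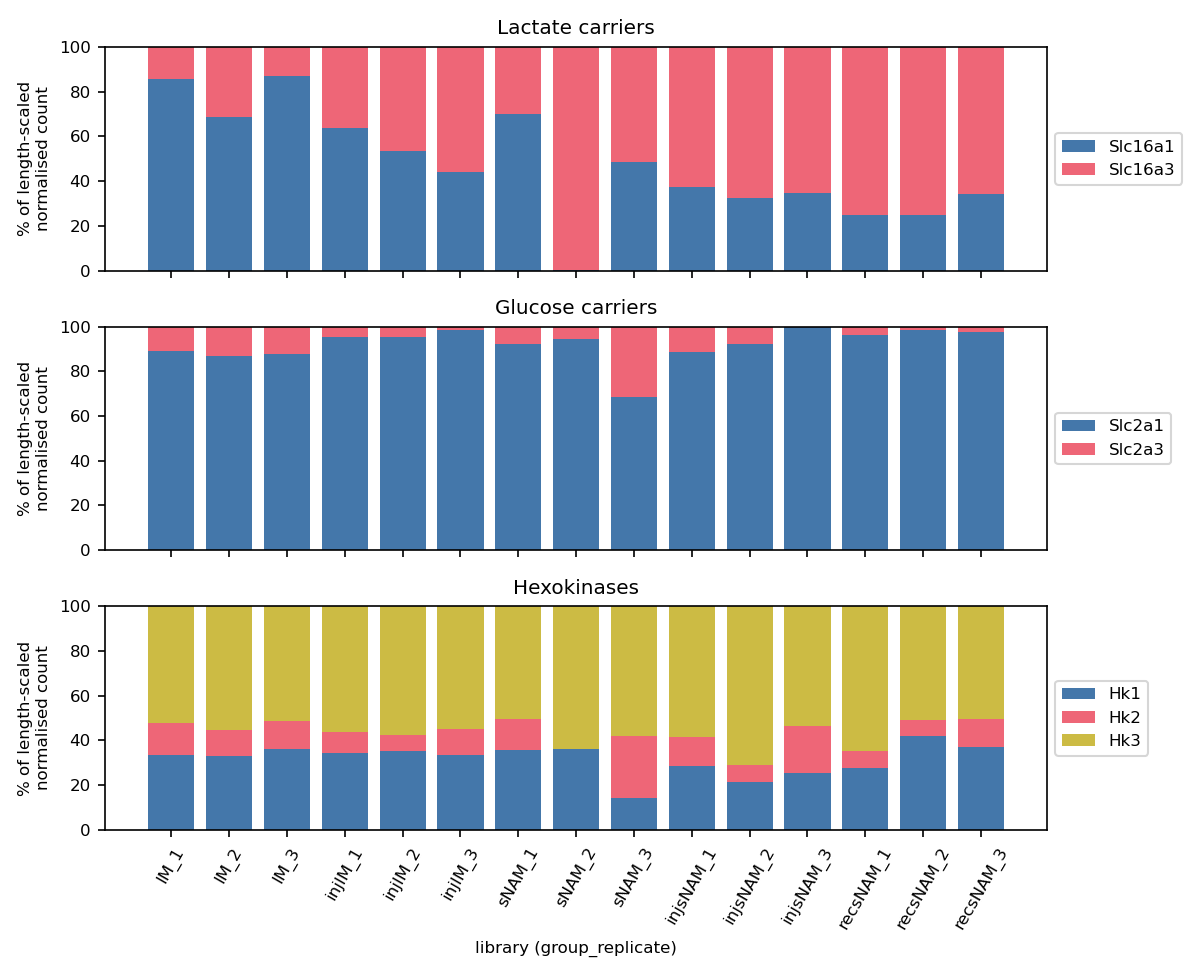
Stacked bars give the share of each gene in the length-scaled normalised count of its step, in percent, for the 15 libraries (named by group and replicate): lactate carriers at the top, glucose carriers in the middle, hexokinases at the bottom. The Slc16a3 share is 12.8 to 31.2% in IM and 65.9 to 75.3% in recsNAM, and Hk3 is the largest hexokinase in every library.

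Promoter sequence, 250 bases upstream of each start listed there, was in the RefSeq table (GRCm38.p6) for 30 of the 34 members. It was searched on both strands for ACGTG, the core of the hypoxia response element, whose reverse complement is CACGT; the palindrome CACGTG, which is also the core of the E-box bound by other factors, was counted once. At least 1 match was found for 19 of the 30 members (63.3%), against 26.8% of the 7000 tested genes and 18.5% of all 27025 genes in the table. The palindrome was present for 6 of 30 (20%) against 10.8% of tested genes. The members were listed as genes of glycolysis and the hypoxia response, so these shares are no independent result about them. The 30 also include Pfkm, Egln3 and Ankrd37, which were not tested and each carry a match. The sequences below are those of the 6 members that were higher in a comparison described further on, because these are the genes the results turn on; each runs 5′ to 3′ in the direction of the gene, and capitals mark the matches. For genes with several annotated starts the start with most matches is shown.
Slc16a3, chr11:120948817-120949066, plus strand: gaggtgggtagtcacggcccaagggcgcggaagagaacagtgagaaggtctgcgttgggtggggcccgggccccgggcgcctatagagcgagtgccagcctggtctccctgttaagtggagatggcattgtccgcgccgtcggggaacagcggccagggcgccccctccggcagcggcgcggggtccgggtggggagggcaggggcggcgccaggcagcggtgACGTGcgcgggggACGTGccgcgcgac
Pkm, chr9:59656977-59657226, plus strand: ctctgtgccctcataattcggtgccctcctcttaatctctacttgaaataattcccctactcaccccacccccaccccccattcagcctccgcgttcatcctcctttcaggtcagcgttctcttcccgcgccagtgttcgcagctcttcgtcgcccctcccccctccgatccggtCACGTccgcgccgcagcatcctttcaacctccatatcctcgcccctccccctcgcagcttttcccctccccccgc
Eno1, chr4:150236458-150236707, plus strand: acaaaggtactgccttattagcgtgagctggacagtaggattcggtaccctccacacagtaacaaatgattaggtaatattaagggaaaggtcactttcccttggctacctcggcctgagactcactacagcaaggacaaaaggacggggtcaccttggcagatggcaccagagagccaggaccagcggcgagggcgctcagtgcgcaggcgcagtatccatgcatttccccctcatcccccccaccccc
Pgam1, chr19:41911621-41911870, plus strand: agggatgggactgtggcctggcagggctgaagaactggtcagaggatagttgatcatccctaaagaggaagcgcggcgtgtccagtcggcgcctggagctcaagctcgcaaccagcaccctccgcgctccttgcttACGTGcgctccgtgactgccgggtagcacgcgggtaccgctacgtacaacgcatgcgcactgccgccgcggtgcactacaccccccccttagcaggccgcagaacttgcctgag
Hif1a, chr12:73907617-73907866, plus strand: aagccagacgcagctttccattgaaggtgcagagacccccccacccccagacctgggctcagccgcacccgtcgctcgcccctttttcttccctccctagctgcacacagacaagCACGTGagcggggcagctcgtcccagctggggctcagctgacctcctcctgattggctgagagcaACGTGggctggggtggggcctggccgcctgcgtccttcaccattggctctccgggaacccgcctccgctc
Ddit4, chr10:59951771-59952020, minus strand: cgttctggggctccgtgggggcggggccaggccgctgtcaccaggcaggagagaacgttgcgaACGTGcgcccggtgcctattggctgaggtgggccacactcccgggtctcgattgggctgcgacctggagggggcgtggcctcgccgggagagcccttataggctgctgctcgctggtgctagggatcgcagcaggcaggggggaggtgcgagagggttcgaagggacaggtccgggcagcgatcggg
Slc16a3 carries 2 matches close to its listed start, 27 and 14 bases upstream. The listed starts of Slc16a3 and Hif1a lie inside the annotated genes, which begin at chr11:120948484 and chr12:73901324. Sequence upstream of those outer ends was not searched. Hif1a carries 2, of which 1 is the palindrome, and Pkm, Pgam1 and Ddit4 carry 1 each. No match lies in this window of any of the 3 annotated starts of Eno1. A match describes letters, and nothing was measured here about binding. The other 4 members called in a comparison lie at chr6:122727809-122802363 (Slc2a3), chr10:62268855-62379920 (Hk1), chr13:55005985-55021475 (Hk3) and chr15:66929318-66969641 (Ndrg1), all on the minus strand of GRCm38. Of these, Hk3 carries 1 match and Hk1 none, and no promoter was listed for Slc2a3 and Ndrg1. Members called in no comparison carry matches too, among them Ldha with 3 and Hk2 and Pgk1 with 2 each.

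**Figure D2:**
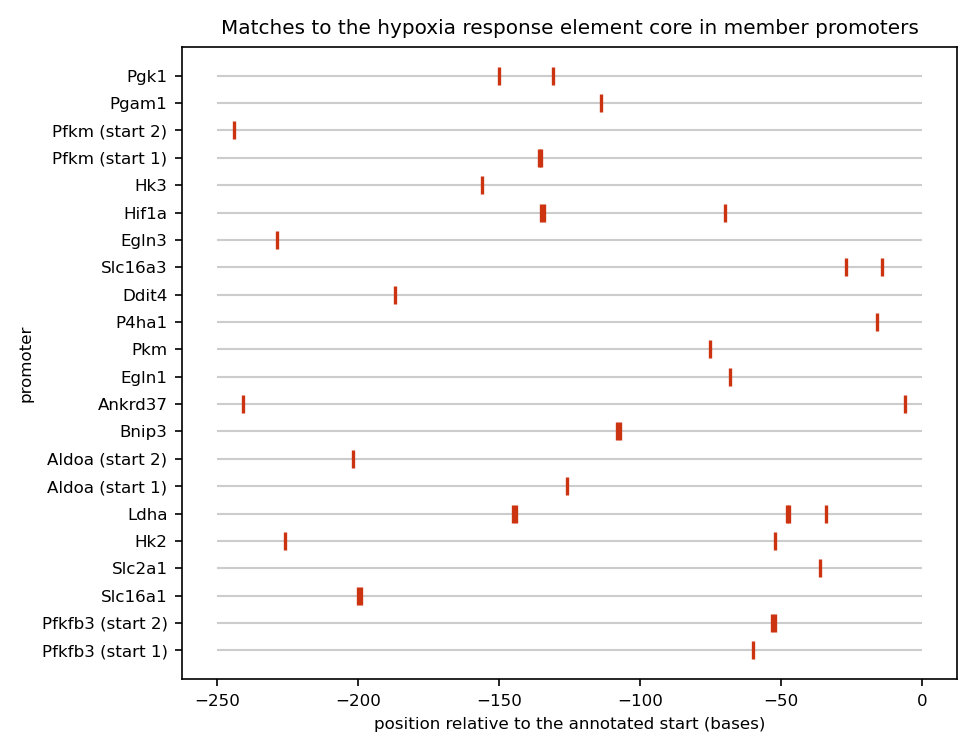
Each line is a promoter window of a member gene from 250 bases upstream to the annotated start, and red ticks mark where the hypoxia response element core matches on either strand (a thick tick is the palindrome). Only the starts with at least 1 match are drawn; the 2 matches of Slc16a3 lie 27 and 14 bases from the start.

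As a whole, the members stood higher in the punched ear. The mean log2 value over the 31 tested members was 10.61, 10.67 and 10.64 in IM and 10.82, 10.84 and 10.90 in injIM, so the groups did not overlap. It was 10.82, 10.81 and 10.86 in recsNAM, 10.62, 10.78 and 10.63 in injsNAM and 10.50, 9.83 and 10.52 in sNAM. On this scale all 3 sNAM libraries lay below every other library, but with a pseudocount of 10 sNAM replicate 3 (10.34) lay above injsNAM replicate 3 (10.18). Over all tested genes the same mean was 9.64 to 9.69 for IM, 9.68 to 9.73 for injIM, 9.16 to 9.56 for sNAM, 9.49 to 9.67 for injsNAM and 9.60 to 9.71 for recsNAM. Relative to that mean the members stood at 0.96 to 1.00 in IM and 1.11 to 1.21 in injIM, still apart, but sNAM (0.67 to 1.07) and injsNAM (0.94 to 1.22) overlapped and sNAM replicate 1 lay above every IM library. The 34 members held 0.5 to 0.515% of the reads in IM, 0.642 to 0.7% in injIM, 0.639 to 0.664% in recsNAM, 0.524 to 0.622% in injsNAM and 0.418 to 0.477% in sNAM. The IM and injIM libraries did not overlap by any of these measures, and in the share of reads neither did sNAM and injsNAM. In bulk RNA of sorted cells, a change in how many cells carry a transcript and a change in its amount per cell cannot be told apart.

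**Figure D3:**
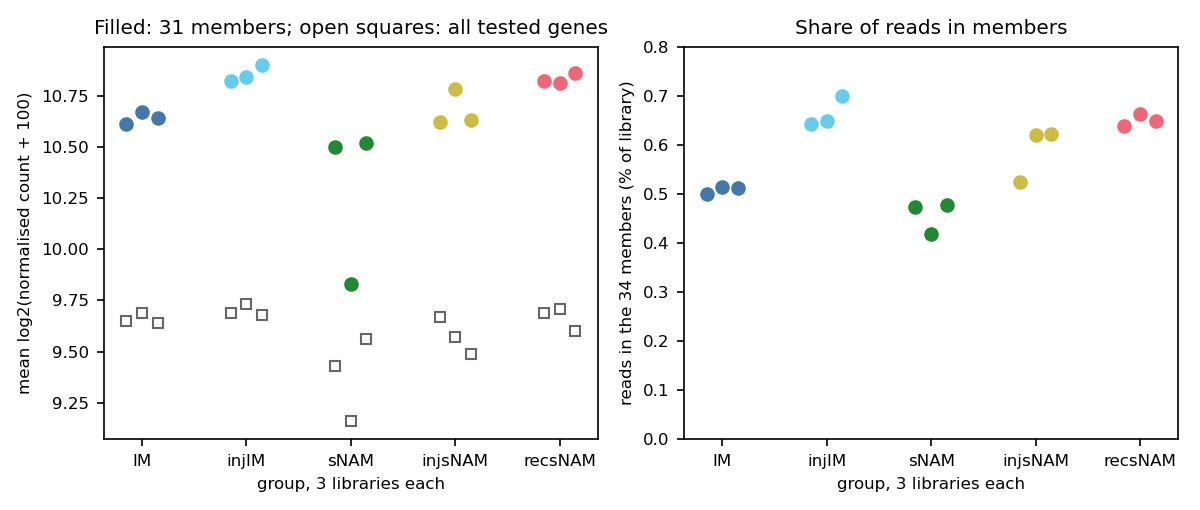
Left, the mean log2(normalised count + 100) of the 31 tested members (filled circles) and of all tested genes (open squares) in each library; right, the percent of each library's reads that fall in the 34 members. The 3 injIM libraries (10.82 to 10.90) lie above the 3 IM libraries (10.61 to 10.67), and sNAM lies lowest on this scale.

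The punched and unpunched ears were compared first within interstitial macrophages. Of the 31 tested members, 5 were higher and 1 was lower in injIM than in IM (19.4%), against 8.18% of all genes called in that comparison (4.15% higher, 4.03% lower). The members that rose were Slc16a3, Pkm, Eno1, Pgam1 and Hif1a, and the member that fell was Slc2a3. The groups did not overlap for 9 members that were higher (13.5% of all genes) and 3 that were lower (11.4% of all genes). The median difference of the members was 0.22 and that of all genes 0.03. A difference above 0 was found for 24 of the 31 members and for 4695 of all 8656 genes. These calls rest on giving each group its own spread. With 1 pooled spread for all groups none of the 31 passed (4 at an unadjusted p under 0.05), edgeR's count test on the recovered reads gave none either (4 at an unadjusted p under 0.05), and DESeq2 gave Pkm alone. Of all 8656 genes, the pooled spread called 18, edgeR (TMM) 4 and DESeq2 64. Without the filter on low values limma kept Pkm and Slc16a3, with 315 of 23686 genes called.

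Among the carriers, Slc16a3 was 343, 887 and 344 in IM and 1148, 1276 and 1503 in injIM. Every injIM library exceeded every IM library, although IM replicate 2 lay well above the other two. The fold was 2.5 and the log2 difference 1.28 ± 0.23 (SE, n = 3 and 3; limma adjusted p = 0.00113). Slc2a1, the main glucose carrier, was 2039, 2777 and 2076 in IM and 3582, 3059 and 3685 in injIM, without overlap, but its difference of 0.57 missed the threshold (limma adjusted p = 0.0681).

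Slc2a3, the high-affinity glucose carrier, went the other way. It was 301, 520 and 351 in IM and 207, 172 and 72.9 in injIM. All injIM libraries lay below all IM libraries, and the log2 difference was -0.98 ± 0.28 (SE, n = 3 and 3; limma adjusted p = 0.0336), 2.59-fold lower. This call was lost whenever any single IM or injIM library was left out (adjusted p from 0.0555 to 0.1 in those 6 limma fits), and with a pseudocount of 10 or a weight per library. For Slc16a1, MCT1, the difference was -0.44 (limma adjusted p = 0.297).

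In upper glycolysis, from glucose to triose phosphate, none of the 9 tested genes passed in limma; none had an unadjusted p under 0.05 there either. The differences ran from -0.34 for Hk2 to 0.45 for Aldoc. Hk3 was 3154, 3278 and 3230 in IM and 3915, 3687 and 3137 in injIM. Pfkp, the leading phosphofructokinase, was 3610, 3735 and 3824 in IM and 3602, 3568 and 3124 in injIM, each injIM library just below every IM library. Aldoa stood at 12252, 12149 and 10993 in IM and at 12139, 12112 and 17231 in injIM, with injIM replicate 3 apart from the rest. The regulators Pfkfb3 and Pfkfb4 differed by -0.15 and -0.04.

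In lower glycolysis, from glyceraldehyde phosphate to pyruvate, 3 of 6 genes were higher and all 6 differences were above 0, with a median of 0.43. Pkm was 10959, 14156 and 12854 in IM and 17815, 20421 and 20852 in injIM. The groups were far apart, the fold was 1.56 and the log2 difference 0.64 ± 0.10 (SE, n = 3 and 3; limma adjusted p = 0.000542). Eno1, the main enolase, was 1093, 1599 and 1335 in IM and 1850, 2311 and 2689 in injIM. Its libraries did not overlap either, and it rose 1.7-fold (0.72 ± 0.15; limma adjusted p = 0.00503).

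Pgam1, phosphoglycerate mutase, was 621, 678 and 683 in IM and 938, 942 and 1200 in injIM. The IM libraries lay close together and below all injIM libraries, and the gene rose 1.55-fold (0.56 ± 0.15; limma adjusted p = 0.0246). This call was lost without either IM replicate 1 or 3 or without any injIM library (differences 0.45 to 0.62, adjusted p from 0.0515 to 0.111 in those limma fits). Gapdh was 4208, 5515 and 4886 in IM and 5075, 5431 and 7744 in injIM, overlapping, with a difference of 0.30 (limma adjusted p = 0.288). Pgk1, phosphoglycerate kinase, and Eno2, the neuronal enolase, both differed by 0.08.

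Pyruvate has 2 fates covered by the set. Ldha, which reduces it to lactate, was 7690, 7251 and 8705 in IM and 8953, 8765 and 12101 in injIM, so the libraries did not overlap, yet the difference of 0.32 was not called (limma adjusted p = 0.134). Pdk1 was 242, 385 and 423 in IM and 370, 378 and 429 in injIM, with full overlap and a difference of 0.15.

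Single libraries stood out along the main trunk of the pathway. For all 9 genes Gpi1, Aldoa, Tpi1, Gapdh, Pgk1, Pgam1, Eno1, Pkm and Ldha, injIM replicate 3 was the highest of its group, and the sum of the 9 was 54736, 58423 and 72682 in injIM replicates 1, 2 and 3 against 43597 to 50188 in IM. These 9 genes were set together after their values were seen. The other two injIM libraries also exceeded every IM library in that sum. In recsNAM, replicate 3 was likewise the highest of its group for 8 of the 9, with a sum of 67891 against 58688 and 58470.

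Of the oxygen sensing genes, Hif1a was 4190, 4482 and 3668 in IM and 7200, 8297 and 5398 in injIM. All injIM libraries were higher, and here replicate 3 was the lowest of them. The fold was 1.69 and the log2 difference 0.73 ± 0.16 (SE, n = 3 and 3; limma adjusted p = 0.00737), a call lost without IM replicate 3 (adjusted p = 0.0552) or injIM replicate 2 (adjusted p = 0.054), in a range from 0.00011 to 1 over all alternatives. Egln1, the main hydroxylase that marks HIF for decay and itself a HIF target, was 567, 628 and 544 in IM and 759, 832 and 854 in injIM. These did not overlap, but the difference of 0.43 was not called (limma adjusted p = 0.169).

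None of the 6 tested hypoxia targets outside glycolysis passed in limma, and 1, Bnip3l, had an unadjusted p under 0.05; the median difference was 0.24. Bnip3l, a mitophagy receptor, had a difference of 0.42 (limma adjusted p = 0.152). Ddit4, the mTORC1 inhibitor, was 38, 59.9 and 25.9 in IM and 86.2, 68 and 106 in injIM, without overlap and with a difference of 0.40 (limma adjusted p = 0.25). P4ha1, a collagen prolyl hydroxylase, was lower in every injIM library than in every IM library, with a difference of -0.22 (limma adjusted p = 0.348). Ndrg1 was 13671, 8761 and 12878 in IM and 18262, 12220 and 11934 in injIM, overlapping.

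Other genes of the 2 pathways were read from wider lists. Of 32 tested genes of sugar and pyruvate branches, 1 was higher and none was lower: Taldo1, transaldolase of the pentose phosphate pathway, rose by 0.46 (limma adjusted p = 0.0281). Of 31 tested genes of the HIF pathway and hypoxia response, 4 were higher and 2 lower. The higher genes were Bhlhe40, a transcriptional repressor (1.41, limma adjusted p = 1.95e-06), Hilpda, a lipid droplet protein (1.20, 0.000608), Vegfa, the vascular growth factor (0.83, 0.0278), and Vhl, the ubiquitin ligase subunit that binds hydroxylated HIF (0.70, 0.0409). Selenbp1, a selenium-binding protein, fell by 0.90 (limma adjusted p = 0.00105) and the transcription factor gene Myc fell by 0.78 (0.0293). The median difference was 0.20 in the sugar list and -0.02 in the hypoxia list, against 0.03 over all genes.

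Markers of other cells also differed between these groups. The summed level of the 8 T and NK cell markers was 61.7 to 94.2 CPM in IM and 174 to 233 in injIM. Nearly all of it was Il7r, at a mean of 74.1 CPM in IM and 206.8 in injIM. Cd3e (1.96 and 0.997), Cd3d, Cd3g and Lck were lower in injIM, while Klrb1c was higher. Trac and Ncr1 were at 0 in both groups. The 9 mast cell markers summed to 552 to 715 in IM and 255 to 273 in injIM, and the 10 dendritic cell markers to 268 to 634 and 105 to 263. Most of the dendritic sum was Cd209a, at a mean of 402 CPM in IM and 136 in injIM. In that list Flt3 (1.29 and 2.67) and Clec9a (0.0319 and 0.404) went the other way. The 6 fibroblast markers summed to 254 to 438 in IM and 275 to 1046 in injIM, overlapping, with none at 0. The 10 neutrophil markers summed to 68.3 to 89.7 and 80.2 to 112, mostly Csf3r, with Ly6g and Elane at 0. The part of these cells in the member differences was not tested.

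**Figure D4:**
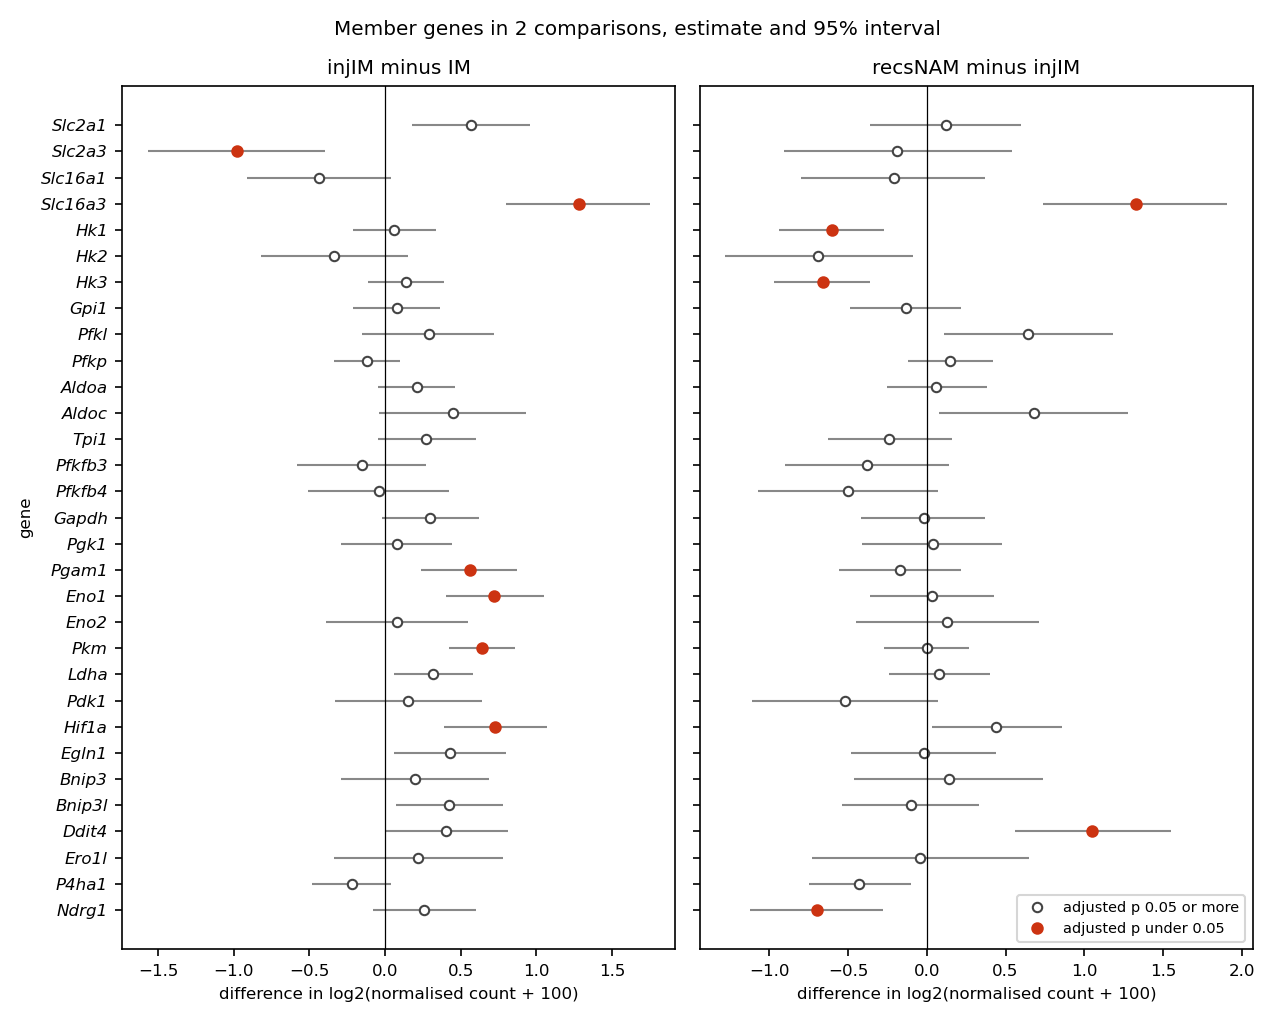
Points are log2 differences of the 31 tested members with 95% intervals (horizontal lines), injIM minus IM on the left and recsNAM minus injIM on the right; filled red points have an adjusted p under 0.05. On the left Slc16a3, Pkm, Eno1, Pgam1 and Hif1a lie to the right of 0 and Slc2a3 to the left; on the right Slc16a3 and Ddit4 lie to the right of 0 and Hk1, Hk3 and Ndrg1 to the left.

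Recruited nerve-associated macrophages were then compared with interstitial macrophages, both from punched ears. Of the 31 members, 2 were higher and 3 lower in recsNAM (16.1%), against 7.53% of all genes called (3.19% higher, 4.34% lower). Slc16a3 and Ddit4 rose, and Hk1, Hk3 and Ndrg1 fell. The median difference was -0.02 for the members and -0.02 for all genes. The groups did not overlap for 2 members that were higher (11.4% of all genes) and 6 that were lower (12.5% of all genes). With 1 pooled spread, and with edgeR's count test (TMM), none of the 31 passed (3 at an unadjusted p under 0.05 in each). DESeq2 gave Hk3 alone, as did limma without the filter. Of all 8656 genes, the pooled spread called 22, edgeR 9 and DESeq2 121. This comparison shares the injIM libraries with the one above.

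Slc16a3 was 3312, 3663 and 3273 in recsNAM, above all injIM libraries (1148 to 1503) and above all other libraries of the study. The fold over injIM was 2.61 and the log2 difference 1.33 ± 0.28 (SE, n = 3 and 3; limma adjusted p = 0.00478). The call was lost without recsNAM replicate 1 (adjusted p = 0.0522, in a range from 7.21e-05 to 0.405 over all alternatives). The MCT1 gene Slc16a1 was 1085, 1197 and 1688 against 2024, 1463 and 1182, a difference of -0.21 (limma adjusted p = 0.771). Slc2a1 and Slc2a3 differed by 0.12 and -0.19, and neither was called.

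Of the 3 hexokinases, Hk1 and Hk3 fell in recruited cells and Hk2 was not called. Hk3 was 2731, 1932 and 2066 in recsNAM against 3915, 3687 and 3137 in injIM. No library overlapped, and the gene was 1.6-fold lower (-0.66 ± 0.15, SE, n = 3 and 3; limma adjusted p = 0.00703), a call lost without injIM replicate 1 (adjusted p = 0.0514, in a range from 0.000979 to 0.397 over all alternatives). Hk1, the housekeeping hexokinase, was 1679, 2294 and 2183 against 3446, 3267 and 2758.

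Again no recsNAM library reached the injIM range, and Hk1 was 1.54-fold lower (-0.60 ± 0.16; limma adjusted p = 0.0258). This call was lost without injIM replicate 1 or 2 or recsNAM replicate 1 (adjusted p from 0.0761 to 0.301 in those 3 limma fits) and without the sNAM and injsNAM libraries (adjusted p = 0.0593). Hk2 was 534, 442 and 856 against 1127, 797 and 1150, with slight overlap and a difference of -0.69 (limma adjusted p = 0.177). The mix of hexokinases overlapped, Hk3 making 50.6 to 64.9% in recsNAM and 54.7 to 57.4% in injIM. Of the other upper steps, Pfkl (0.64, limma adjusted p = 0.151) and Aldoc (0.68, 0.186) had the largest differences above 0, and Gpi1, Pfkp, Aldoa and Tpi1 lay between -0.24 and 0.15.

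No gene of lower glycolysis was called by limma, or had an unadjusted p under 0.05, and all 6 differences lay between -0.17 and 0.13. Pkm was 19185, 20355 and 19555 in recsNAM against 17815 to 20852 in injIM, a difference of 0.00 with a 95% interval from -0.27 to 0.27. Eno1 differed by 0.03 (95% interval -0.36 to 0.43) and Ldha by 0.08 (-0.24 to 0.40). Pdk1 was 202, 232 and 303 against 370, 378 and 429, without overlap, and was not called (-0.52; limma adjusted p = 0.348).

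Hif1a was 10138, 12536 and 6430 in recsNAM against 7200, 8297 and 5398 in injIM, overlapping, with a difference of 0.44 (limma adjusted p = 0.226). Egln1 differed by -0.02. Ddit4 was 248, 339 and 276 in recsNAM against 86.2, 68 and 106 in injIM. The groups lay far apart and the fold was 3.32 (1.05 ± 0.24, SE, n = 3 and 3; limma adjusted p = 0.00803), a call lost without recsNAM replicate 1 (adjusted p = 0.0522, in a range from 0.00189 to 1 over all alternatives).

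Ndrg1 was 8342, 7438 and 9925 against 18262, 12220 and 11934. The groups did not overlap, with injIM replicate 1 far above the others, and the gene was 1.65-fold lower (-0.70 ± 0.20; limma adjusted p = 0.0384). Of 15 limma fits that each left out 1 library, 5 lost this call, with adjusted p from 0.0503 to 0.224, as did the fit without the sNAM and injsNAM libraries (adjusted p = 0.122). P4ha1 was 1723, 1749 and 1810 against 2630, 2625 and 1996, also without overlap, at a difference of -0.43 (limma adjusted p = 0.111).

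In the wider lists, 2 of 32 sugar and pyruvate genes were higher in recsNAM and none was lower, namely Ldhb, the lactate dehydrogenase subunit of oxidative tissues (1.19, limma adjusted p = 0.0147), and Taldo1 (0.54, 0.042). Of the 31 hypoxia genes, 2 were higher and 6 lower. Those with the largest differences were Tfrc, the transferrin receptor (-2.67, limma adjusted p = 5.27e-06), Selenbp1 (-1.36, 0.000191), and the MYC antagonist Mxi1 (1.09, 0.00277). Vegfa was 17181, 17687 and 19075 in recsNAM against 7445, 8989 and 10527 in injIM, 2-fold higher (1.01; limma adjusted p = 0.0334). Bhlhe40, higher in injIM than in IM, was lower in recsNAM than in injIM (-0.58; limma adjusted p = 0.0371).

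The summed T and NK cell markers were 363 to 495 CPM in recsNAM and 174 to 233 in injIM, again mostly Il7r, with Trac and Ncr1 at 0 in both. The dendritic cell markers were 368 to 558 against 105 to 263, with none of the 10 at 0. Ccr7 averaged 298 CPM in recsNAM against 12.7 in injIM, while Cd209a (69.6 against 135.9) and Xcr1 (14.4 against 15.8) were lower. The fibroblast markers were 44.4 to 263 against 275 to 1046, and mast cell markers 189 to 260 against 255 to 273. Their part in the member differences was not tested.

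**Figure D5:**
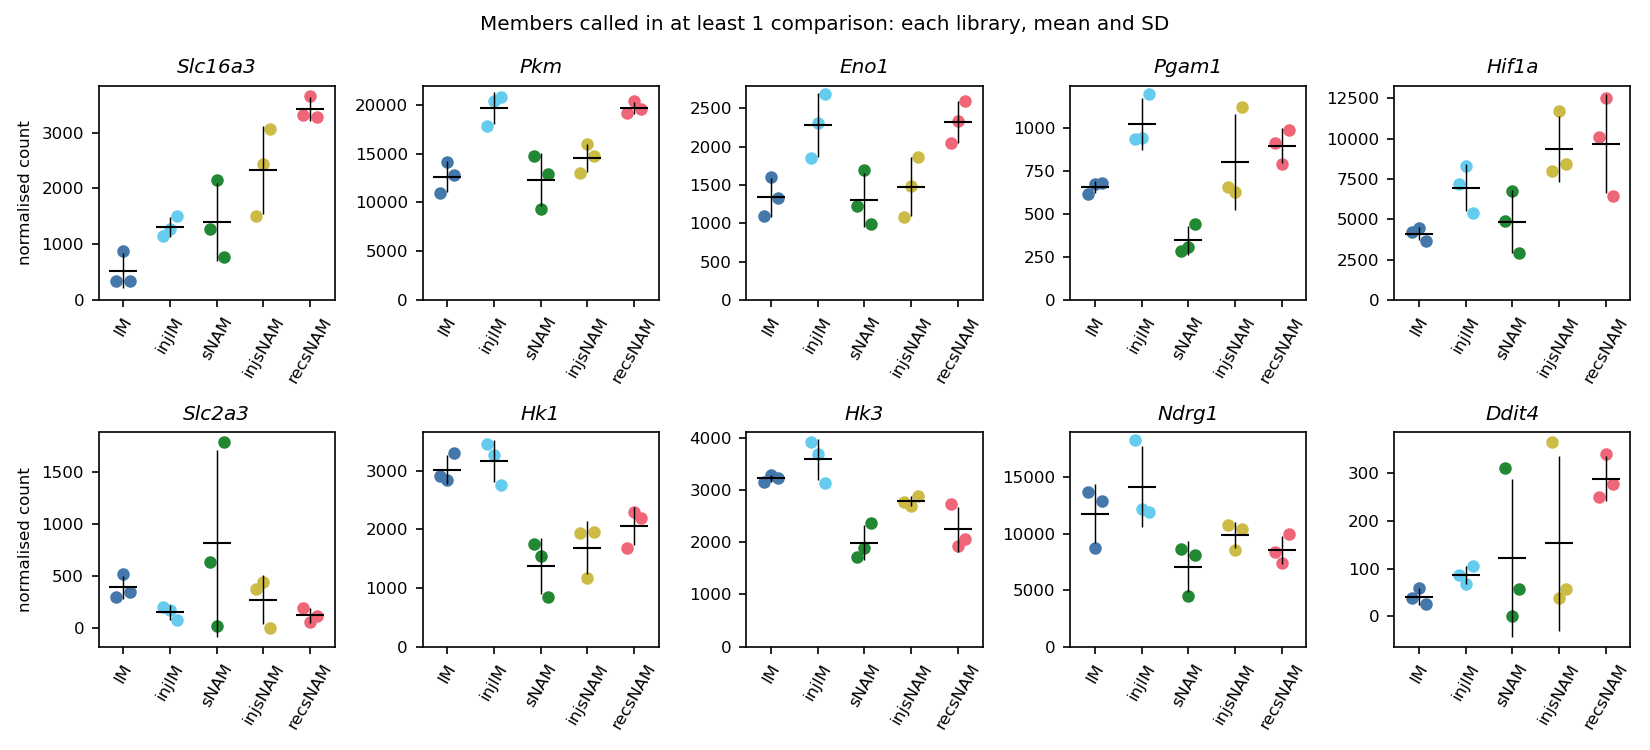
Points are the normalised counts of the 10 members called in at least 1 comparison, in each of the 15 libraries; horizontal lines are group means and vertical lines the SD (n = 3). Slc16a3 reaches 3273 to 3663 in recsNAM against 343 to 887 in IM, while Hk1 and Hk3 are lower in recsNAM than in injIM.

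In the unpunched ear, sNAM were compared with IM. None of the 31 members passed in limma, where 1.05% of all genes did (0.543% higher, 0.508% lower), and 6 members had an unadjusted p under 0.05 (15% of all genes). The median difference was -0.36 for the members and -0.26 for all genes, and in edgeR's fit the median of all genes was -0.11 with TMM and -0.05 with the deposited factors. The groups did not overlap for Aldoc on the higher side (9.57% of all genes) and for Hk1, Hk3, Pgam1, Pdk1, Egln1 and Ndrg1 on the lower side (18.4% of all genes). Other tests gave calls here. edgeR called Hk1 and Aldoc, and DESeq2 these together with Slc16a3, Hk3 and Pgam1. With 1 pooled spread, limma called Egln1, Hk1 and Aldoc. Of all 8656 genes, edgeR (TMM) called 332 in this comparison, DESeq2 922 and the pooled spread 727.

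Hk1 was 1756, 1537 and 842 in sNAM against 2911, 2837 and 3295 in IM. All sNAM libraries lay below, and the difference was -1.13 ± 0.41 (SE, n = 3 and 3; limma adjusted p = 0.197). Aldoc, the brain type aldolase, was 1744, 664 and 392 in sNAM and 83.6, 110 and 97.7 in IM. It was higher in every sNAM library, with a difference of 2.17 and a 95% interval from 0.63 to 3.71 (limma adjusted p = 0.163). The dendritic cell markers summed to 1665 to 3098 CPM in sNAM against 268 to 634 in IM, the T and NK cell markers to 481 to 645 against 61.7 to 94.2, and the fibroblast markers to 6.28 to 52.5 against 254 to 438. Most of the dendritic sum in sNAM was Ccr7, at a mean of 1551 CPM against 25.6 in IM. In that list Cd209a (314.5 against 402.3) and Xcr1 (5.68 against 19.5) were lower in sNAM, and the rest were higher. Of the T and NK list, Cd3e averaged 60.2 CPM and Cd3g 75.1 in sNAM against 1.96 and 1.242 in IM, Il7r 444 against 74.1, and Ncr1, Trac and Klrb1c were at 0 in sNAM. Lum of the fibroblast list was at 0 there too. The mast cell markers summed to 0.161 to 1891 CPM in the sNAM libraries against 552 to 715 in IM. What part all these cells have in the member values was not tested.

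Some member values in sNAM were at or near no read. Egln1 was 0.963, 0 and 466 in sNAM, the lowest nonzero value being a single read, against 544 to 628 in IM (-1.92; limma adjusted p = 0.1). Pdk1 had no read in 2 sNAM libraries and 211 in the third. Slc16a1 was 2931, 2.91 and 736, where 2.91 is 1 read, and Hk2 and Eno2 had no read in replicate 2. Of the 31 tested members, 5 had no read in sNAM replicate 2 and 1 in replicate 1. The share of all tested genes with no read was 25.8% in replicate 2 (5636251 reads), 11.6% in replicate 1 (18632984 reads) and 3.89% in replicate 3 (9086996 reads), so it did not follow the depth within sNAM. A member with no read there was not detected, which does not show that it is absent.

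Within resident nerve-associated macrophages, injsNAM against sNAM gave no call for any member and for 0% of all genes in limma; 2 members, Egln1 and Pfkfb4, had an unadjusted p under 0.05 (6.77% of all genes). The member median was 0.33 against 0.14 for all genes, and 25 of 31 differences were above 0, against 5023 of all 8656 genes. Hif1a was 7979, 11726 and 8407 in injsNAM and 4925, 6768 and 2903 in sNAM. Its libraries did not overlap, as for Hk3, Pgam1, Ldha and Egln1 (7.35% of all genes on the higher side; Aldoc alone was lower in every injsNAM library, 4.69% of all genes), and the difference was 0.99 with a 95% interval from -0.31 to 2.29 (limma adjusted p = 0.848). Pgam1 was 658, 628 and 1125 against 288, 309 and 446 (0.99; limma adjusted p = 0.822). Ldha was 9477, 11124 and 10843 against 4587, 6043 and 8245 (0.76; limma adjusted p = 0.845). The dendritic cell markers summed to 447 to 999 CPM in injsNAM against 1665 to 3098 in sNAM, without overlap, with Clec9a at 0 in injsNAM. Ccr7 averaged 422.5 against 1551 there, while Xcr1 (29.6 against 5.68) and Itgae (4.81 against 4.09) were higher in injsNAM. The T and NK cell markers summed to 348 to 595 against 481 to 645. Mast cell markers summed to 15.4 to 201 against 0.161 to 1891, with Fcer1a at 0 in injsNAM. Their part in the member differences was not tested. DESeq2 called 4 members here, Ldha, Hif1a and Pgam1 higher and Aldoc lower. With 1 pooled spread limma called Egln1, and edgeR called no member (5 at an unadjusted p under 0.05). Of all 8656 genes, DESeq2 called 725 here, the pooled spread 363 and edgeR (TMM) 135.

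Whether the difference between the ears was unequal in resident nerve-associated and interstitial macrophages was tested as an interaction. No member passed in limma, nor did any gene (0%), and 2 members had an unadjusted p under 0.05 (5.13% of all genes). edgeR and DESeq2 called no member either (1 at an unadjusted p under 0.05 in each). Of all 8656 genes, edgeR (TMM) called 26 and DESeq2 228. The intervals were wide. The interaction was 2.02 for Pfkfb4 (limma adjusted p = 0.906) and 1.85 for Egln1 (limma adjusted p = 0.858). Both draw on sNAM libraries with few reads. Pfkfb4 was 1497, 14.6 and 452 in sNAM, where 14.6 is 5 reads, and Egln1 had 1, 0 and 252 reads. The same sNAM values enter the comparison of injsNAM with sNAM. So the rise of Slc16a3, Pkm, Eno1, Pgam1 and Hif1a in the interstitial cells is not shown to be particular to them.

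In the punched ear, resident injsNAM against injIM gave no member call in limma, where 0.485% of all genes were called, and 2 members had an unadjusted p under 0.05 (11.7% of all genes). Hk1 was 1933, 1169 and 1957 in injsNAM against 2758 to 3446 in injIM, without overlap, at a difference of -0.90 ± 0.32 (SE, n = 3 and 3; limma adjusted p = 0.241). Hk3, Pkm and Ndrg1 were also lower in every injsNAM library (12% of all genes), and Pfkp was higher in each (8.92% of all genes). Pkm was 13002, 15943 and 14740 against 17815 to 20852 (-0.43; limma adjusted p = 0.549). Slc16a3 was 1500, 2440 and 3067 against 1148 to 1503, so a single pair of libraries overlapped (0.74; limma adjusted p = 0.671). The T and NK cell markers summed to 348 to 595 CPM in injsNAM and 174 to 233 in injIM, with Cd3e at 92.2 against 0.997 and Ncr1 at 0 in both. The dendritic cell markers summed to 447 to 999 against 105 to 263, mostly Ccr7 in injsNAM (a mean of 422.5 against 12.7), with Clec9a alone lower there. The fibroblast markers summed to 0.355 to 38.8 against 275 to 1046, with Pdgfra at 0 in injsNAM. The mast cell markers summed to 15.4 to 201 against 255 to 273, with Fcer1a at 0 in injsNAM. The part of all these cells was not tested. edgeR, DESeq2 and limma with 1 pooled spread called no member (4 at an unadjusted p under 0.05 in each). Of all 8656 genes, edgeR (TMM) called 35 here, DESeq2 314 and the pooled spread 69.

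Recruited against resident nerve-associated macrophages gave no call of any member and for 0% of all genes in limma, and no member had an unadjusted p under 0.05 (7.15% of all genes). Eno1, Pkm and Slc16a3 were higher in every recsNAM library (7.29% of all genes) and P4ha1 lower (6.4%). Eno1 was 2042, 2340 and 2594 against 1088, 1489 and 1860 (0.64; limma adjusted p = 0.831). Pkm differed by 0.44 with a 95% interval from -0.11 to 0.99, and Slc16a3 by 0.58 with an interval from -0.61 to 1.77. The T and NK cell marker sums overlapped (363 to 495 CPM in recsNAM, 348 to 595 in injsNAM), while Cd3e averaged 1.86 CPM in recsNAM and 92.2 in injsNAM, with Ncr1 at 0 in both. The dendritic cell sums overlapped (368 to 558 and 447 to 999), as did the mast cell sums (189 to 260 and 15.4 to 201, with Fcer1a at 0 in injsNAM). The fibroblast sums did not (44.4 to 263 and 0.355 to 38.8). The part of all these cells was not tested. edgeR and DESeq2 also called no member, with 2 members at an unadjusted p under 0.05 in each. Of all 8656 genes, edgeR (TMM) called 6 here and DESeq2 154.

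Of the 31 tested members, 21 were called in none of the 7 contrasts by limma. Those not given library by library above spanned wide ranges over the 15 libraries, set mostly by sNAM and injsNAM. Gpi1, glucose-6-phosphate isomerase, ran from 1546 to 4694 and Tpi1, triosephosphate isomerase, from 1566 to 5257, both lowest in sNAM replicate 1 and highest in injIM replicate 3. Bnip3, a mitophagy receptor like Bnip3l, ran from 1.93 to 713, both extremes in sNAM, and Ero1l, an oxidase of the endoplasmic reticulum, from 0.856 (1 read, injsNAM replicate 3) to 2108. Pgk1 ran from 371 to 971 and Pfkl from 492 to 2123. The 3 members below the filter had a mean under 100, though single libraries exceeded it. Pfkm, the muscle phosphofructokinase, ran from 0.981 to 468, with its highest value in sNAM replicate 3 and 115 to 130 in injIM. Egln3, a strongly HIF-induced prolyl hydroxylase, ran from 0 to 190, and Ankrd37, a HIF target, from 0 to 143, and the highest values of these 2 genes lay in single injsNAM libraries.

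Some members cannot be read alone. For 10 members (Gapdh, Ldha, Pgk1, Bnip3, Eno1, Pkm, Pgam1, Tpi1, Gpi1 and Bnip3l) the annotation holds at least 1 near-identical copy, 95% or more identical over 100 bases or more. Copies that have a row of their own held at most 0.818% of the signal of gene and copy (Eno1b beside Eno1). Only Gapdh (4 of 82 copies) and Eno1 (1 of 3) have such copies, so for the others, Pkm and Pgam1 among them, no share can be given. How reads that fit both were counted is not given in the sources used here, so the values of these 10 are uncertain by an unknown amount. Exons of 12 members overlap another annotated gene, Hk3 with Unc5a, Hif1a with Gm15283 and Ndrg1 with Gm17035 among them, and whether counting used strand is not given either.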

How the data were processed

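RNA-seq libraries of 15 sorted macrophage samples were prepared from 250 pg RNA with 13 PCR cycles, per the labels' protocols; STAR 2.7.2b, DESeq2 1.24.0 and the build mm10 are named in the submitters' processing notes. The deposited values, 1 table of normalised signal, proved to be whole read counts divided by a factor per library: 100% of values came out whole within 0.01. The main test was limma 3.58.1 (trend, robust, 1 weight per group) on log2(value + 100) for 8656 genes with a mean of 100 or more. It used Benjamini-Hochberg adjustment and a threshold of 0.05, over 7 contrasts. It was tried on simulated data for injIM minus IM alone, drawn with 1 spread per group as the weights assume, so the other contrasts were not covered. Count tests on the recovered reads used edgeR 4.0.16 and DESeq2 1.42.0 (R 4.3.3). For injIM against IM, edgeR called 4 genes and DESeq2 64, and for recsNAM against injIM 9 and 121. Exon lengths came from GENCODE mouse release 21, copies from BLAST 2.17.0, promoters from RefSeq.

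Values per library are given for members called in any comparison and for leading genes of each step; related genes are those called, up to 4 per comparison by size, and a few others were named after their values were seen. The members, lists and tests were chosen with earlier results of these data known. Alternatives were a pooled spread, a weight per library, a pseudocount of 10, no filter, a replicate block, leaving out each library and, chosen after seeing the data, leaving out the sNAM and injsNAM libraries.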

Additional observations from a re-analysis of the deposited data

How the results depend on the processing

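Over all alternatives, of 261 values of the 11 member calls, 186 kept their call, 75 lost it and 0 reversed. The 2 groups compared did not overlap for any of the 11 calls, so a reversal could hardly occur and its absence is no support. For each call, 15 of the values come from fits that left out 1 library, most often one outside the 2 groups compared. DESeq2 gave no adjusted p for Pgam1, Slc2a3 and Ddit4. The counts of members called depended on how the spread was modelled. For injIM against IM (6 in the main fit) edgeR gave 0 with TMM and 0 with the deposited factors, DESeq2 1, the pooled spread 0 and no filter 2 (Pkm and Slc16a3); leaving out 1 library gave 3 to 7, with 3 without IM replicate 3 or injIM replicate 2. For recsNAM against injIM (5 in the main fit) edgeR gave 0 and 0, DESeq2 1 and the pooled spread 0. A weight per library gave 9 (1363 of all 8656 genes), no filter 1, and the fit without sNAM and injsNAM 3. Leaving out 1 library gave 1 to 7, with 2 without injIM replicate 1 and 1 without recsNAM replicate 1. For sNAM against IM (0) edgeR gave 2 and 2, DESeq2 5 and the pooled spread 3. Of all 8656 genes these called 332 and 351, 922 and 727. For injsNAM against sNAM (0) DESeq2 gave 4 and the pooled spread 1, with 725 and 363 of all 8656 genes called. The cause of these shifts was not tested. The other 3 comparisons stayed at 0 members under every alternative run. A replicate block gave 7 members for injIM against IM and 9 for recsNAM against injIM (928 and 1211 of all 8656 genes). The labels give the numbers no meaning: 9 of 30 same-number pairs correlated above 0.1 (median 0.0648) against 3 of 60 other-number pairs (median -0.0370). As a hint from the data, 14 of 15 libraries correlated best with their own number, and between injIM and recsNAM the same-number correlations were 0.0926, 0.388 and 0.370 for replicates 1, 2 and 3. With a pseudocount of 10 the mean log2 of the members was 10.45 (IM), 10.69 (injIM), 9.80 (sNAM), 10.40 (injsNAM) and 10.69 (recsNAM); over all 34 members it was 10.32, 10.53, 9.99, 10.35 and 10.49. Depth was lowest in sNAM (5636251 reads in its shallowest library); what part it has in the spread of that group was not tested.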
